A study of Mus musculus with 20 samples.

Results

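The 9 genes described here encode prothrombin (F2), histidine-rich glycoprotein (Hrg), the 3 chains of fibrinogen (Fga, Fgb and Fgg), tissue factor (F3), the plasminogen activators of tissue type (Plat) and urokinase type (Plau), and thrombomodulin (Thbd). They were chosen from the 25700 gene identifiers of the series as a list of coagulation and fibrinolysis genes, with their levels over the 4 groups of these libraries already known, so their levels and differences are given as a description and carry no test. All 9 passed the filter on low counts that left 15430 genes. RNA was sequenced in 20 mouse libraries, 5 in each group, from a study of bicarbonate given as alkali therapy in crystal nephropathy, kidney damage by crystals. The groups were untreated controls (titled Control), controls on alkali therapy (Control_late), untreated oxalate mice (Oxalate) and oxalate mice on alkali therapy (Oxalate_late). The word late stands in the titles of both alkali groups and is not explained, and the labels give neither tissue, strain, age, sex, oxalate dose nor duration of alkali. If late marks a later time of sampling, alkali and time cannot be told apart. Libraries are named by the numbers in their titles. Nothing in the labels says that each came from its own animal, so the p-values below measure only how libraries vary, and that variation may be technical.

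Prothrombin is cleaved to thrombin, which turns fibrinogen into fibrin. Tissue factor starts that cascade, thrombomodulin on endothelium turns thrombin toward activating protein C, and the plasminogen activators Plat and Plau make plasmin, which dissolves fibrin. Prothrombin, Hrg and fibrinogen are plasma proteins made mainly by the liver, but kidney cells also transcribe some of their genes. Urokinase is made by tubule cells, and the first fragment of prothrombin is a known protein of the organic matrix of calcium oxalate crystals, whose growth it slows.

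The sequences before the transcription starts of F2, Hrg and the fibrinogen genes are shown because these liver-type genes differed most among themselves. The RefSeq table used here (GRCm38.p6) matched 6 of the 9 genes, F2, Hrg, Fga, Fgb, Fgg and F3, and Plat, Plau and Thbd were not matched. Each window holds the 200 bases before the RefSeq start, on the gene's own strand, and lies at chr2:91636458-91636657 (minus strand) for F2, chr16:22950872-22951071 (plus strand) for Hrg, chr3:83025953-83026152 (plus strand) for Fga, chr3:83049864-83050063 (minus strand) for Fgb and chr3:83007524-83007723 (plus strand) for Fgg. Capitals mark letters that match a searched motif on either strand.
F2: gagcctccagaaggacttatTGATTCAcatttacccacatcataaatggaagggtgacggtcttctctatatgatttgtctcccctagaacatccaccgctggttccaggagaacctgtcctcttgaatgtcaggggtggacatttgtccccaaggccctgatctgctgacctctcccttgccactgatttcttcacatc
Hrg: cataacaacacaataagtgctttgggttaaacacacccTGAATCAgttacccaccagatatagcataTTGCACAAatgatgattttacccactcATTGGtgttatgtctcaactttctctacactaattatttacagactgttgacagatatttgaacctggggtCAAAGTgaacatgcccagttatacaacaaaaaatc
Fga: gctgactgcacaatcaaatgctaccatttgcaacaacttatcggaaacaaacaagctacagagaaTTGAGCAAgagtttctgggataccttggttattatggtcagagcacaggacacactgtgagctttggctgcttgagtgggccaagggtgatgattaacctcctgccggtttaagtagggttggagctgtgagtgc
Fgb: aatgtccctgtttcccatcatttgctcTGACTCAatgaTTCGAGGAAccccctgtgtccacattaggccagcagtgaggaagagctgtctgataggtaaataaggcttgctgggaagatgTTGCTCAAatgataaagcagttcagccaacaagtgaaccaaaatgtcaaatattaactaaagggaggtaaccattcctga
Fgg: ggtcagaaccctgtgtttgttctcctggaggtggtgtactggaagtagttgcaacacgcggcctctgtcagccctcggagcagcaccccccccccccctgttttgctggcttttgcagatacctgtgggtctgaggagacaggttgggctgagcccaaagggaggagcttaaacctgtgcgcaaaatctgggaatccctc
The motifs were searched in the 250 bases before the start, on both strands, and a match is a description of letters. The C/EBP motif TTGCNNAA was in Hrg, Fga and Fgb, and in 9.6% of 32851 promoters. The STAT motif TTCNNNGAA was in Fgb and, upstream of the window shown, in Fga (7.0%). The AP-1 motif TGANTCA was in F2, Hrg and Fgb, and at 2 places in F3 (6.7%). Hrg also held the HNF4 half-site CAAAGT (12.6%) and the CAAT box CCAAT on the opposite strand (33.8%). The TATA box TATAAA (12.4%) and the E-box CACGTG (6.0%) had no match in the 6 genes. The Fgg window held none of the 7 motifs, whereas its neighbour Fga held 2 and Fgb held 3 in the 250 bases.

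In the GRCm38 annotation (GENCODE M21) the fibrinogen genes lie side by side on chromosome 3 within 42.1 kb, Fgg from 83007724 to 83015049, Fga from 83026076 to 83033627 and, on the opposite strand, Fgb from 83040141 to 83049863. F2 lies on chromosome 2 from 91625320 to 91636414, Hrg on chromosome 16 from 22951072 to 22961656, F3 on chromosome 3 from 121723537 to 121735048 and Thbd, a gene of 1 exon, on chromosome 2 from 148404466 to 148408188. Plat lies on chromosome 8 from 22757727 to 22782844 and Plau on chromosome 14 from 20836660 to 20843385. The Fga window printed above, placed by the RefSeq start, ends at 83026152 and so lies partly inside Fga as annotated here. Exons of Fgg share 115 bases with a long noncoding RNA gene on the opposite strand, Gm30097, and the exons of the other 8 genes overlap no annotated gene. Total counts ran from 25547840 to 39550689 per library. Levels are given as CPM, counts scaled to a common library size after TMM normalization in edgeR. Levels of different genes are compared as CPM per kb of exon, with all annotated exons of a gene merged, unless CPM is named.

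F2 was the rarest of the 9 transcripts per exon length in both untreated groups and showed the widest differences between groups. It was lower in oxalate than in control libraries without alkali, and higher on alkali in both control and oxalate libraries. In untreated controls F2 stood at 0.889, 0.998, 0.719, 1.22 and 0.980 CPM in libraries 13, 19, 26, 35 and 9. In untreated oxalate libraries 12, 3, 32, 39 and 40 it stood at 0.250, 0.333, 0.116, 0.0992 and 0.114 CPM. Every untreated oxalate library lay below every control. On alkali, F2 stood at 2.07, 2.46, 2.66, 2.71 and 1.53 CPM in control libraries 1, 27, 37, 4 and 7. In oxalate libraries 2, 30, 33, 5 and 8 on alkali it stood at 1.96, 1.79, 2.98, 2.15 and 3.62 CPM. Both alkali groups lay wholly above both untreated groups, and they overlapped with each other.

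**Figure D1:**
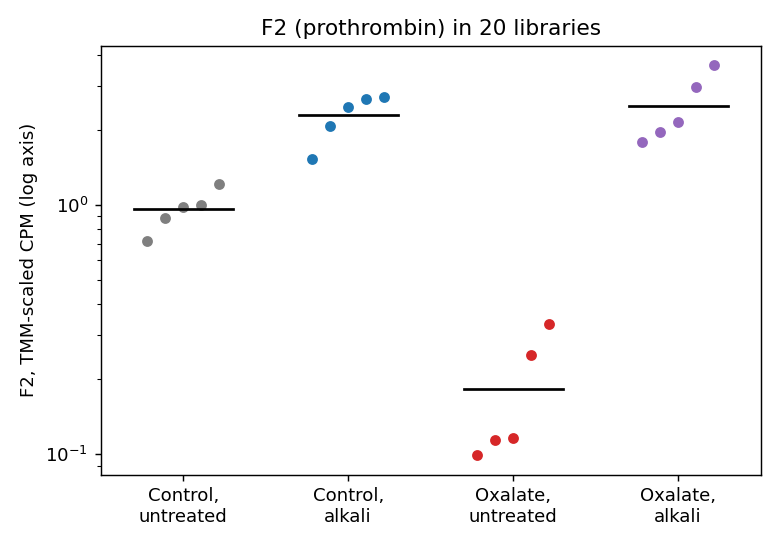
F2 level in each of the 20 libraries, in TMM-scaled CPM on a log axis, with a dot per library and a bar at the mean of each group of 5. The untreated oxalate libraries lie between 0.0992 and 0.333 CPM, below all others, and the alkali groups lie above every untreated library.

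F2 means were 0.960 ± 0.181 CPM (SD, n = 5) in untreated controls, 0.183 ± 0.104 in untreated oxalate libraries, 2.29 ± 0.494 in controls on alkali and 2.50 ± 0.776 in oxalate libraries on alkali. The order of groups was thus untreated oxalate, untreated control, control on alkali and oxalate on alkali, and the 2 highest groups did not differ beyond their spread. Fitted log2 differences ± SE were -2.39 ± 0.32 for oxalate against control without alkali and 0.13 ± 0.26 on alkali. For alkali against no alkali they were 3.77 ± 0.32 in oxalate and 1.25 ± 0.27 in control libraries, which leaves an interaction of 2.52 ± 0.41. Among the 15430 genes ranked by fitted change, F2 was 2nd from the top for alkali in oxalate libraries, 32nd for alkali in controls and 24th from the bottom for oxalate without alkali. With each library left out in turn, the oxalate difference without alkali ran from -2.69 to -2.25, the alkali difference in oxalate libraries from 3.59 to 4.07 and that in controls from 1.16 to 1.37.

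The F2 values rest on few reads. Counts per library were 3 to 10 in untreated oxalate, 21 to 30 in untreated control, 41 to 85 in control on alkali and 57 to 139 in oxalate on alkali libraries, with sums of 31, 126, 328 and 437. Exact 95% Poisson intervals, which cover counting error only, ran from 0.160 to 0.612 CPM for oxalate library 3, the highest of its group, and from 0.445 to 1.10 CPM for control library 26, the lowest of its group. These single libraries therefore overlapped within counting error. The interval of the lowest library on alkali, control library 7 at 1.53 CPM, was 1.10 to 2.07 CPM and overlapped that of control library 35, the highest untreated one, at 0.821 to 1.74 CPM.

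Hrg encodes a plasma glycoprotein that binds heparin, plasminogen and divalent metals. Its mean was lower in oxalate than in control libraries with and without alkali. Untreated control libraries 13, 19, 26, 35 and 9 held 19.6, 9.12, 15.4, 18.9 and 15.7 CPM of Hrg, and untreated oxalate libraries 12, 3, 32, 39 and 40 held 3.59, 1.73, 5.30, 1.65 and 0.846 CPM. All untreated oxalate libraries were below all controls. On alkali, control libraries 1, 27, 37, 4 and 7 held 11.8, 9.48, 11.2, 8.58 and 11.9 CPM of Hrg, and oxalate libraries 2, 30, 33, 5 and 8 held 10.5, 5.73, 1.15, 2.63 and 2.09 CPM. Oxalate library 2 reached the range of the controls on alkali, and the other 4 lay below it. The Hrg means were 15.7 ± 4.14 and 2.62 ± 1.80 CPM without alkali and 10.6 ± 1.499 and 4.41 ± 3.80 CPM on alkali (SD, n = 5, control before oxalate). The log2 difference between oxalate and control was -2.58 ± 0.49 without alkali, 21st from the bottom among all tested genes, and -1.27 ± 0.47 on alkali. Alkali against no alkali gave 0.74 ± 0.48 in oxalate and -0.57 ± 0.45 in control libraries, with overlapping groups. One library set much of the value in oxalate: without oxalate library 2 on alkali the difference was 0.16, and without untreated oxalate library 32 it was 1.18. F2 and Hrg were thus both low in untreated oxalate libraries, while on alkali F2 was high in all 5 oxalate libraries and Hrg in 1 of them.

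The fibrinogen genes did not move together. Fgg, the gene of the gamma chain, was higher in untreated oxalate libraries, whereas Fga, the gene of the alpha chain, had nearly the same mean in untreated control and oxalate libraries, and Fgb, the gene of the beta chain, was scarce everywhere. Fgg stood at 8.93, 9.94, 5.34, 13.3 and 8.55 CPM in untreated control libraries 13, 19, 26, 35 and 9, and at 24.6, 29.0, 15.3, 25.7 and 25.97 CPM in untreated oxalate libraries 12, 3, 32, 39 and 40. The groups did not overlap, with oxalate library 32 the nearest to the controls. On alkali, Fgg stood at 10.3, 9.23, 10.99, 11.4 and 9.64 CPM in control libraries 1, 27, 37, 4 and 7, and at 9.27, 19.2, 21.6, 14.8 and 19.1 CPM in oxalate libraries 2, 30, 33, 5 and 8. Oxalate library 2 lay among the controls and the other 4 above them. The log2 difference of Fgg between oxalate and control was 1.39 ± 0.22 without alkali and 0.70 ± 0.22 on alkali, and alkali against no alkali gave -0.52 ± 0.21 in oxalate and 0.17 ± 0.22 in control libraries.

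Fga means were 26.9 ± 8.64 CPM in untreated controls, 27.9 ± 9.86 in untreated oxalate, 29.3 ± 4.95 in controls on alkali and 21.4 ± 1.69 in oxalate libraries on alkali (SD, n = 5). The untreated groups overlapped over most of their range, 16.1 to 39.5 and 15.3 to 41.1 CPM, with a log2 difference of 0.06 ± 0.22. On alkali every oxalate library (19.6 to 23.2 CPM) lay below every control (23.4 to 36.5 CPM), by a narrow margin, with a log2 difference of -0.45 ± 0.22. Scaled by total counts in place of TMM, those groups overlapped and the difference was -0.24. Alkali against no alkali gave -0.39 ± 0.22 for Fga in oxalate libraries, and -0.20 without untreated oxalate library 12. Fgb means ran from 1.22 ± 0.288 CPM in untreated controls through 1.59 ± 0.259 and 1.78 ± 0.365 to 2.02 ± 0.533 CPM in oxalate libraries on alkali, from 24 to 87 counts per library. All neighbours in that order overlapped, and the log2 difference between oxalate and control was 0.55 ± 0.22 without alkali and 0.35 ± 0.22 on alkali.

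Fibrinogen is assembled from equal numbers of the 3 chains, but their transcripts were far from equal. Per exon length, Fga made up 65.1% ± 5.94 of the fibrinogen transcripts in untreated controls, Fgg 32.5% ± 5.94 and Fgb 2.41% ± 0.424 (SD, n = 5). In untreated oxalate libraries Fga made up 42.9% ± 5.81, Fgg 54.9% ± 5.80 and Fgb 2.27% ± 0.456. By these means Fga led in controls and Fgg in oxalate libraries, although Fga also led in untreated oxalate library 12 (52.5%) and in oxalate library 2 on alkali (57.6%). Which chain led depends on the lengths used, 3010 bases of merged exons for Fga, 2093 for Fgg and 3810 for Fgb. Not divided by length, mean Fga stayed above mean Fgg in untreated oxalate (27.9 and 24.1 CPM) and in oxalate libraries on alkali (21.4 and 16.8 CPM). The lengths are the same in all groups. The ratio of Fga to Fgg ran from 1.53 to 3.07 in untreated controls and from 0.627 to 1.16 in untreated oxalate libraries, which did not overlap. On alkali it ran from 1.65 to 2.74 in controls and from 0.746 to 1.47 in oxalate libraries, again with no overlap. The highest of the oxalate libraries on alkali was library 2. Fga stood 27.7 ± 5.21 times above Fgb in untreated controls and 14.0 ± 3.07 times in oxalate libraries on alkali.

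**Figure D2:**
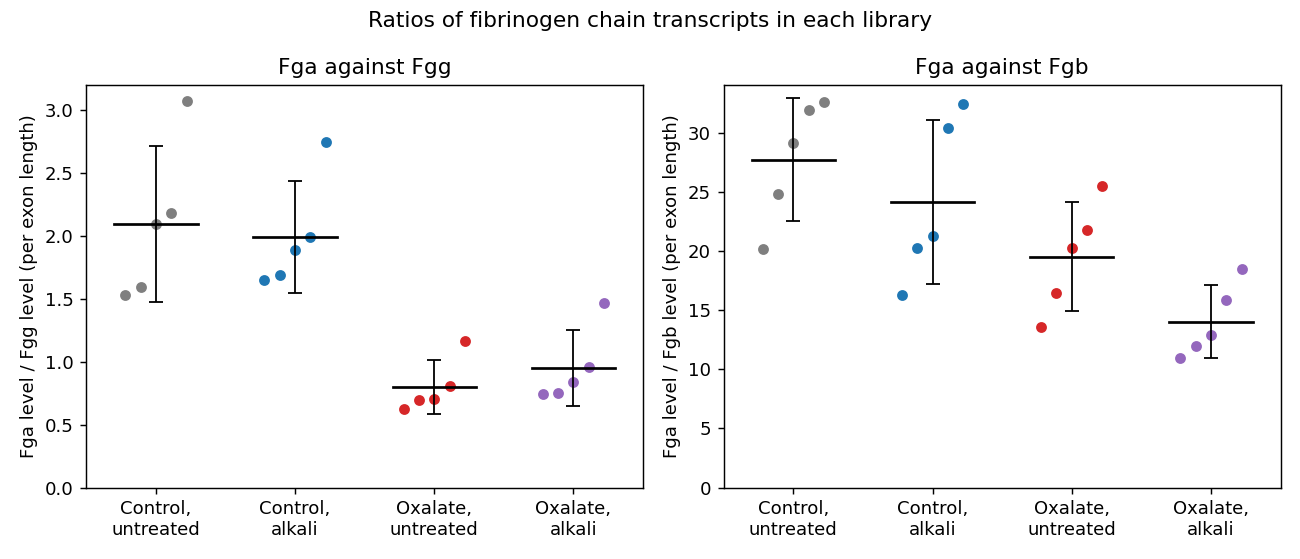
Ratio of Fga to Fgg (left) and of Fga to Fgb (right) per exon length in each of the 20 libraries, with a dot per library and mean ± SD of each group of 5. In the left panel the oxalate libraries, at 0.627 to 1.47, lie below all controls, at 1.53 to 3.07, and in the right panel the groups spread from 10.96 to 32.6.

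F3, which encodes tissue factor, the membrane receptor of factor VII, differed by less than most of the other genes. Its means were 21.1 ± 5.85 CPM in untreated controls, 30.3 ± 4.94 in untreated oxalate, 18.5 ± 3.06 in controls on alkali and 24.5 ± 3.66 in oxalate libraries on alkali (SD, n = 5). The oxalate libraries ran from 24.0 to 35.7 CPM without alkali and overlapped the controls, at 13.7 to 29.9 CPM, through control library 35, the highest. The log2 difference of F3 was 0.52 ± 0.17 without alkali and 0.40 ± 0.17 on alkali (0.84 and 0.61 scaled by total counts). Alkali against no alkali gave -0.30 ± 0.16 in oxalate and -0.19 ± 0.17 in control libraries, with overlapping groups.

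Thbd encodes thrombomodulin, the endothelial receptor that turns thrombin from a clotting into an anticoagulant enzyme. It was higher in oxalate than in control libraries with and without alkali. Untreated control libraries 13, 19, 26, 35 and 9 held 21.1, 24.0, 18.8, 21.9 and 24.8 CPM of Thbd, and untreated oxalate libraries 12, 3, 32, 39 and 40 held 72.1, 66.8, 41.6, 47.4 and 60.4 CPM. On alkali, control libraries 1, 27, 37, 4 and 7 held 26.7, 22.01, 22.6, 23.6 and 21.7 CPM, and oxalate libraries 2, 30, 33, 5 and 8 held 32.7, 37.1, 51.4, 52.7 and 54.6 CPM. All 10 oxalate libraries lay above all 10 controls, and the oxalate groups overlapped with each other. The log2 difference of Thbd was 1.38 ± 0.15 without alkali and 0.97 ± 0.15 on alkali, and alkali against no alkali gave -0.34 ± 0.15 in oxalate and 0.08 ± 0.15 in control libraries. The summed level of 10 endothelial markers ran from 419 to 559 CPM in untreated controls and from 476 to 648 CPM in untreated oxalate libraries, which overlap. On alkali it ran from 431 to 573 and from 528 to 805 CPM. The part of these markers in the Thbd difference was not tested.

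The 2 plasminogen activators went opposite ways in oxalate libraries. Plau, by far the most abundant of the 9 genes at 269 ± 54.1 CPM per kb in untreated controls, was lower, and Plat, at 8.23 ± 0.848 CPM per kb, was higher. Plau stood at 733, 496, 497, 752 and 701 CPM in untreated control libraries 13, 19, 26, 35 and 9, and at 308, 301, 247, 293 and 363 CPM in untreated oxalate libraries 12, 3, 32, 39 and 40. These groups did not overlap under TMM, and overlapped when scaled by total counts. On alkali, Plau stood at 673, 649, 583, 769.9 and 707 CPM in control libraries 1, 27, 37, 4 and 7, and at 689, 313, 419, 329 and 382 CPM in oxalate libraries 2, 30, 33, 5 and 8. Oxalate library 2 lay among the controls, and the other 4 lay below them all. The log2 difference of Plau between oxalate and control was -1.07 ± 0.19 without alkali and -0.67 ± 0.18 on alkali. Alkali against no alkali gave 0.50 ± 0.18 in oxalate libraries, and 0.26 without oxalate library 2, and 0.09 ± 0.18 in controls.

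Plat ran from 47.1 to 60.4 CPM in untreated controls, 68.0 to 119 in untreated oxalate, 41.9 to 49.6 in controls on alkali and 57.8 to 79.6 CPM in oxalate libraries on alkali. The oxalate libraries lay above the controls of the same treatment with no overlap. The means were 51.3 ± 5.29, 93.8 ± 21.6, 44.9 ± 3.14 and 71.4 ± 10.4 CPM (SD, n = 5), and the log2 difference between oxalate and control was 0.87 ± 0.13 without alkali and 0.67 ± 0.13 on alkali. Alkali against no alkali gave -0.39 ± 0.13 for Plat in oxalate and -0.19 ± 0.13 in control libraries. Not divided by length, mean Plau was 636 CPM in untreated controls and 302 CPM in untreated oxalate libraries. The ratios of Plau to Plat depend on the lengths used, 6241 bases of merged exons for Plat and 2367 for Plau. Per exon length, Plau stood 33.2 ± 8.56 times above Plat in untreated controls and 8.67 ± 1.09 times in untreated oxalate libraries. On alkali these ratios were 39.8 ± 4.08 in controls and 16.5 ± 8.45 in oxalate libraries, of which library 2 had the highest, 31.5, and the lowest had 11.04. Plau thus stayed the more abundant activator in all 20 libraries.

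**Figure D3:**
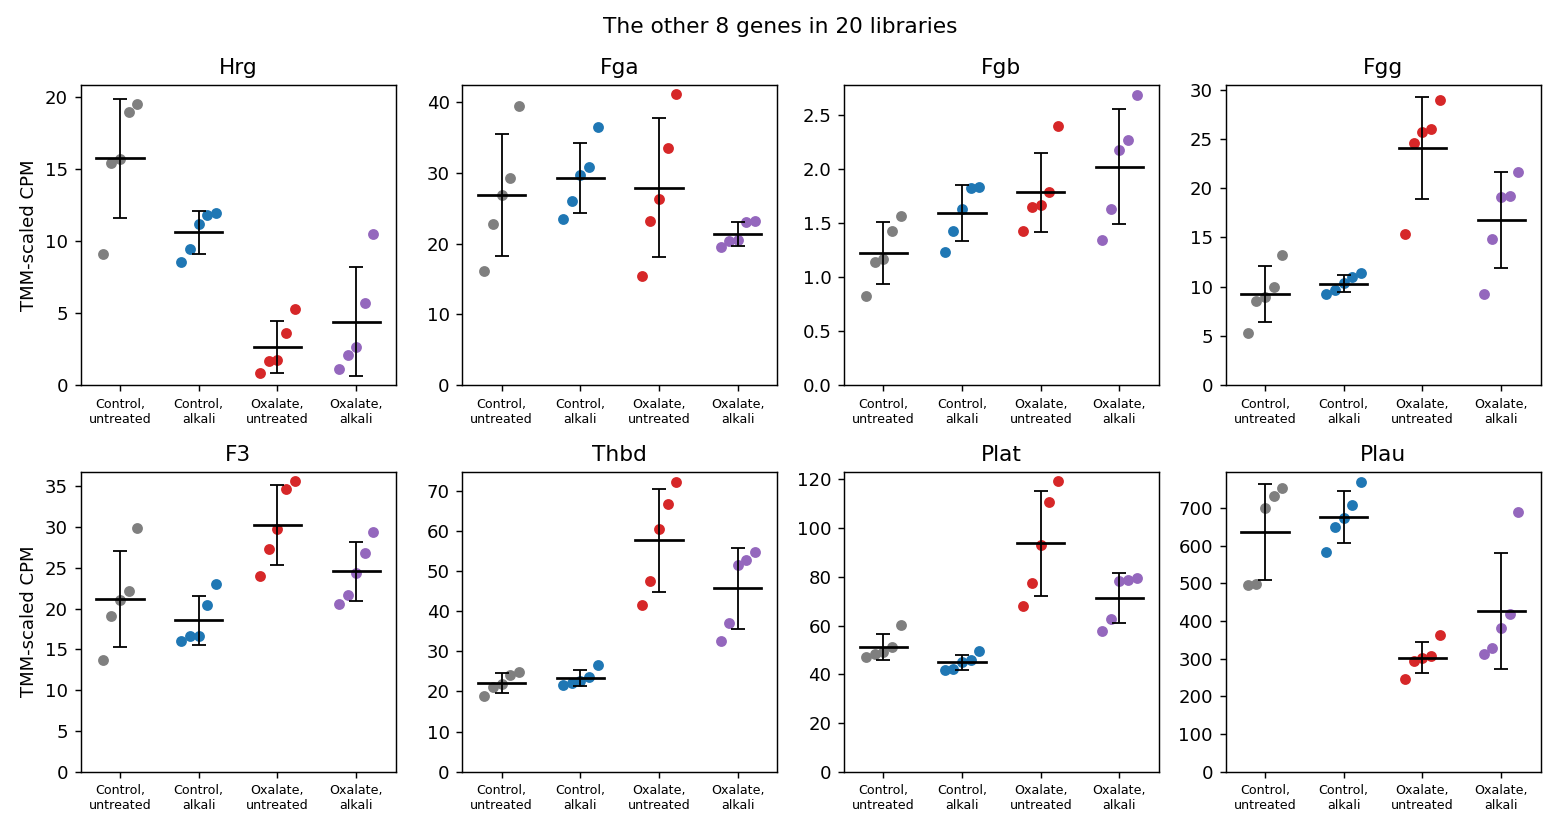
Levels of Hrg, Fga, Fgb, Fgg, F3, Thbd, Plat and Plau in each of the 20 libraries, in TMM-scaled CPM on linear axes from 0, with a dot per library and mean ± SD of each group of 5. Hrg and Plau are low and Fgg, Thbd and Plat high in untreated oxalate libraries, and single oxalate libraries on alkali, at 10.5 CPM for Hrg and 689 CPM for Plau, lie among the controls.

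Counted together, 3 of the 9 genes (Fgg, Plat and Thbd) were higher in all untreated oxalate libraries than in all untreated controls, against 18.5% of the 15430 genes tested, and 3 (F2, Hrg and Plau) were lower in all of them, against 15.4%. On alkali, 2 (Plat and Thbd) were higher without overlap, against 10.8% of all genes, and Fga alone was lower, against 5.51%. For alkali in oxalate libraries F2 alone was higher without overlap (1.91% of all genes) and none was lower (1.61%). For alkali in controls F2 alone was higher as well (0.557% of all genes) and none was lower (0.467%). The median log2 difference of the 9 genes was 0.52 and 0.35 for oxalate without and on alkali, against 0.00 and 0.02 over all tested genes. For alkali in oxalate and control libraries it was -0.30 and 0.09, against 0.01 and 0.00. The 4 comparisons share groups of libraries, and the genes were chosen with these levels known, so nothing is read from these shares.

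**Figure D4:**
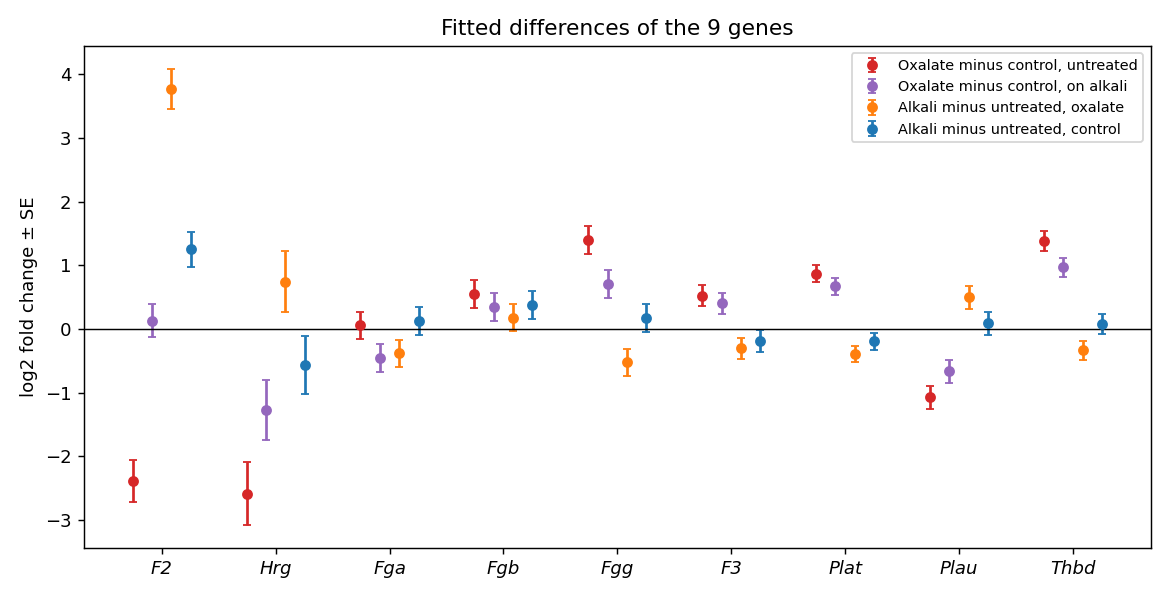
Fitted log2 fold change ± SE of each of the 9 genes in the 4 comparisons of 2 groups, with 5 libraries per group and a line at 0. F2 spans -2.39 (oxalate without alkali) to 3.77 (alkali in oxalate libraries), and the other 8 genes lie between -2.58 and 1.39.

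The make-up of the libraries moved with the groups. In bulk RNA, fewer cells of a type and less RNA per cell cannot be told apart. The summed level of 10 kidney segment markers was 48390 to 54350 CPM in untreated controls, 18420 to 41270 in untreated oxalate, 44130 to 50760 in controls on alkali and 22670 to 42300 CPM in oxalate libraries on alkali, so kidney transcripts were abundant throughout. The 10 injured tubule markers summed to 135 to 182, 407 to 839, 145 to 175 and 202 to 423 CPM in the same order. Macrophage and monocyte markers, also 10, summed to 114 to 131, 595 to 2580, 104 to 156 and 247 to 793 CPM, and 10 fibroblast and pericyte markers to 195 to 271, 527 to 1945, 198 to 379 and 392 to 1067 CPM. Oxalate library 2 on alkali, which had the highest Hrg and Plau and the lowest Fgg, Plat and Thbd of its group, also had the lowest injured tubule (202), macrophage (247) and fibroblast (392) and the highest kidney segment sum (42300) of that group. The part of these cells in the levels of the 9 genes was not tested.

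Some liver genes had transcripts in these libraries and others had almost none. Of 20 hepatocyte markers 11 to 13 were detected in every library of a group, and their sum ran from 141 to 333 CPM in untreated controls, 195 to 296 in untreated oxalate, 169 to 228 in controls on alkali and 161 to 209 CPM in oxalate libraries on alkali. Most of that sum was Ttr, which also has transcripts outside the liver, at group means of 106 to 178 CPM. Albumin (Alb) stood at 7.53, 4.84, 6.04 and 4.02 CPM in the same order. Group means of Serpina1a ran from 19.5 to 38.0 CPM, of Apoh from 7.30 to 16.5, of Itih2 from 5.12 to 12.2 and of Apoc3 from 6.48 to 9.75 CPM, all above those of F2. Other markers were scarcer, Apoa1 at 0.463 to 0.771, Fabp1 at 0.295 to 1.345, Serpina1c at 1.19 to 2.26 and Ambp at 1.51 to 2.27 CPM. On alkali these scarcer markers all lay below F2, at 2.29 CPM in control and 2.50 CPM in oxalate libraries. Mup20 had no count in any library, and Ahsg, Cps1, Tat, Mup3 and Cyp1a2 had at most 5, 4, 4, 4 and 1 counts. Platelet and megakaryocyte markers (12) summed to 8.51 to 16.0 CPM over all libraries. For alkali in oxalate libraries, where F2 differed by 3.77, the 11 hepatocyte markers that passed the filter differed by -0.47 (Ttr) to 0.61 (Itih2) on the log2 scale, and 5 of them (Itih2, Ambp, Apoa1, Apoc3 and Serpina1c) were above 0. The part of liver transcripts in the F2 levels was not tested.

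The rest of the pathway was described through 6 lists of genes that hold none of the 9, with 89 genes tested. The lists were chosen with earlier results of these data known. Counts of called genes per list are therefore a description, and nothing about a list as a whole is read from them. For oxalate against control without alkali, 48 were higher and 17 lower by edgeR's quasi-likelihood test at an adjusted p under 0.05, where 26.4% of all tested genes were higher and 23.1% lower. On alkali 39 were higher and 6 lower, against 23.4% and 17.1% of all genes. For alkali in oxalate libraries 1 was higher and 14 lower, against 1.76% and 2.33% of all genes. Scaled by total counts in place of TMM, the median of all genes moved to 0.30 (without alkali) and 0.24 (on alkali), and the share of higher genes among all called ones went from 53.3% to 85.15% and from 57.78% to 85.56%. Small differences are therefore relative to that shift.

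Procoagulant factors and receptors went both ways without alkali, 7 of 19 higher and 6 lower, with a median log2 difference of -0.09. The factor VII gene F7, whose protein is the partner of tissue factor, rose by 5.16 ± 0.75 (edgeR, adjusted p = 2.15e-05). Its means were 0.0554 ± 0.0481 CPM in untreated controls and 2.03 ± 1.66 CPM in untreated oxalate libraries (SD, n = 5). The control level of F7 was near 0, so the size of its fold change is uncertain. The factor X gene F10 rose by 4.15 ± 0.64, from 0.249 ± 0.142 to 4.40 ± 3.03 CPM. Thrombin's receptor gene F2r rose by 1.18 ± 0.19 and the related receptor gene F2rl1 by 0.88 ± 0.12. Among the 6 that fell were F13b, the carrier subunit of the fibrin-crosslinking factor XIII (-1.03), F5, the cofactor in the complex that activates prothrombin (-0.72), and Lman1 and Mcfd2, which carry factors V and VIII out of the endoplasmic reticulum (-0.30 and -0.45). Of 13 anticoagulant genes 6 rose and 2 fell (median 0.36). Serpina10, the inhibitor of factor X that works with protein Z, rose by 4.15 ± 0.32 (edgeR, adjusted p = 1.43e-07), from 1.30 ± 0.407 to 23.1 ± 8.13 CPM, and Pros1, the protein S gene, by 1.52 ± 0.17. Proz, the protein Z gene, and Proc, the protein C gene, fell, by 1.27 and 0.90.

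Of 13 plasminogen and fibrinolysis genes 8 rose and 3 fell without alkali (median 0.70). Serpine2, which inhibits thrombin and both plasminogen activators, rose by 2.11 ± 0.24, as did Plaur, the receptor of urokinase, by 1.96. Anxa2 and S100a10, which form a plasminogen-binding complex on cell surfaces, rose by 2.01 ± 0.22 and 0.70 ± 0.09, and Serping1, the C1 inhibitor gene, by 2.28 ± 0.28. Plg, the plasminogen gene, and Serpinf2, the gene of the plasmin inhibitor antiplasmin, fell by 0.90 and 1.18. Plg was scarce, at 0.578 ± 0.200 CPM in untreated controls and 0.308 ± 0.102 CPM in untreated oxalate libraries (SD, n = 5). Mean Serpinf2 was 517 and 228 CPM in the same order. Of 14 fibrinogen-like and fibrinogen-binding genes 10 rose and none fell (median 1.73), among them the integrin genes Itgam (4.11 ± 0.44), Itgb2 (4.39 ± 0.45) and Itgax (4.74 ± 0.52), which also mark myeloid cells, and Fn1, the fibronectin gene (3.13 ± 0.33). The macrophage sum given above, which itself includes Itgam, moved with them.

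IL-6 type acute phase genes, which share their inducers with the fibrinogen genes in liver, rose in 16 of 20 cases and fell in none (median 2.04). The cytokine receptor gene Osmr rose by 2.64 ± 0.26, the feedback inhibitor gene Socs3 by 3.43 ± 0.31, Lcn2, the gene of an iron-siderophore binding protein of injured tubules, by 4.78 ± 0.44, and Cp, the ceruloplasmin gene, by 2.21 ± 0.22. The list mixes genes of plasma proteins with those of cytokines, receptors and signalling, such as Lif, Il6ra and Stat3. Hp and Orm1 were not among the genes that rose. Hp means were 4.597 ± 6.27 CPM in untreated controls and 3.576 ± 1.065 CPM in untreated oxalate libraries (SD, n = 5). Orm1 means were 0.971 ± 1.51 and 0.437 ± 0.244 CPM in the same order. Il6 itself was under the filter, with 214 counts over the 20 libraries, of which 112 were in a single library. Saa1, Saa2, Saa3 and Orm2 were also under it, with at most 10 counts in a library. Of 10 liver-type transcription factors 6 fell and 1 rose (median -0.76). Among them the bile acid receptor gene Nr1h4 fell by 0.86 ± 0.24 (edgeR, adjusted p = 0.00522) and Ppara by 0.93 ± 0.26, and Hnf4a fell by 0.73. Cebpa rose by 0.38. In the same libraries Fgg was higher and F2 and Hrg were lower. The kidney segment sum moved with the transcription factors, and its part was not tested.

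On alkali, the acute phase, anticoagulant and fibrinogen-binding genes called for oxalate against control were all higher in oxalate libraries. Procoagulant genes were higher for 5 and lower for 3 of 19 (median -0.01), anticoagulant genes higher for 7 of 13 (0.62) and fibrinolysis genes higher for 6 and lower for 2 of 13 (0.24). Fibrinogen-like and binding genes were higher for 9 of 14 (median 0.96), acute phase genes for 12 of 20 (1.26), and of the liver-type factors 1 of 10 was lower (-0.49). F7 and F10 rose by 2.95 and 2.49, Serpina10 by 3.35 ± 0.32 (edgeR, adjusted p = 7.28e-06) and Serpine2 by 1.62. F7 was again near 0 in the controls, at 0.0518 ± 0.0773 CPM (SD, n = 5). Ppara fell by 0.95 ± 0.26 (edgeR, adjusted p = 0.00957), while Hnf4a (-0.54, adjusted p = 0.0507) did not pass. Hnf4a did pass under DESeq2 (adjusted p = 0.0241), with DESeq2's size factors in edgeR (0.0442), with no filter (0.0483) and in the fit of the 2 groups (0.0322). It also passed without untreated oxalate library 32 or 40 and without oxalate library 2 or 30 on alkali (adjusted p from 0.00917 to 0.0378). Without oxalate library 2 on alkali 17 list genes were lower in place of 6, and without untreated oxalate library 40, which the fit uses for the spread, 11 were. These counts do not test whether a gene's oxalate difference changes on alkali. That is the interaction, fitted gene by gene and given below.

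For alkali in oxalate libraries the calls among the lists were few, and most were lower with alkali. The fibrinogen-like and binding list held 7 lower of 14 (median -0.72), among them Itgb2 at -1.59 ± 0.39 (edgeR, adjusted p = 0.0287), Itgax at -1.72 ± 0.44, Itgb3, an integrin gene of platelets and other cells, at -0.99 ± 0.26 and Thbs1, the thrombospondin 1 gene, at -0.84 ± 0.21. In the fibrinolysis list 4 of 13 were lower (median -0.48), among them Plaur (-1.22 ± 0.32, adjusted p = 0.0381), Anxa2 (-0.79 ± 0.21) and S100a10 (-0.48 ± 0.09, adjusted p = 0.00804). F7 was lower by 2.31 ± 0.56 on the log2 scale (adjusted p = 0.0267), and 1 of 19 procoagulant genes passed (median 0.00). Serpina10 was lower (-1.39 ± 0.27, adjusted p = 0.00894) and its partner Proz higher (1.12 ± 0.23, adjusted p = 0.0128) among 13 anticoagulant genes (median 0.02). Stat3 alone passed among 20 acute phase genes (-0.64 ± 0.15, adjusted p = 0.0255, list median -0.62), and 0 of 10 liver-type factors did (median 0.25). The integrin calls moved with the macrophage sum, which itself includes Itgam, at 595 to 2580 CPM without and 247 to 793 CPM with alkali. The part of those cells was not tested.

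These alkali calls depended on the fit and on single libraries. In a fit of the 10 oxalate libraries alone, 0 of the 15 list genes passed (edgeR, adjusted p from 0.105 for S100a10 to 0.234 for Anxa2 among the 12 chosen by smallest p). The count of lower list genes was 9 without control library 37 on alkali, 2, 4, 26 and 4 without untreated oxalate libraries 12, 3, 32 and 40, and 5, 2, 7 and 8 without oxalate libraries 2, 30, 5 and 8 on alkali. Itgax was at -1.10 without untreated oxalate library 40. The calls of S100a10, Serpina10 and Proz were lost in the fit of 2 groups and in no other alternative run.

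**Figure D5:**
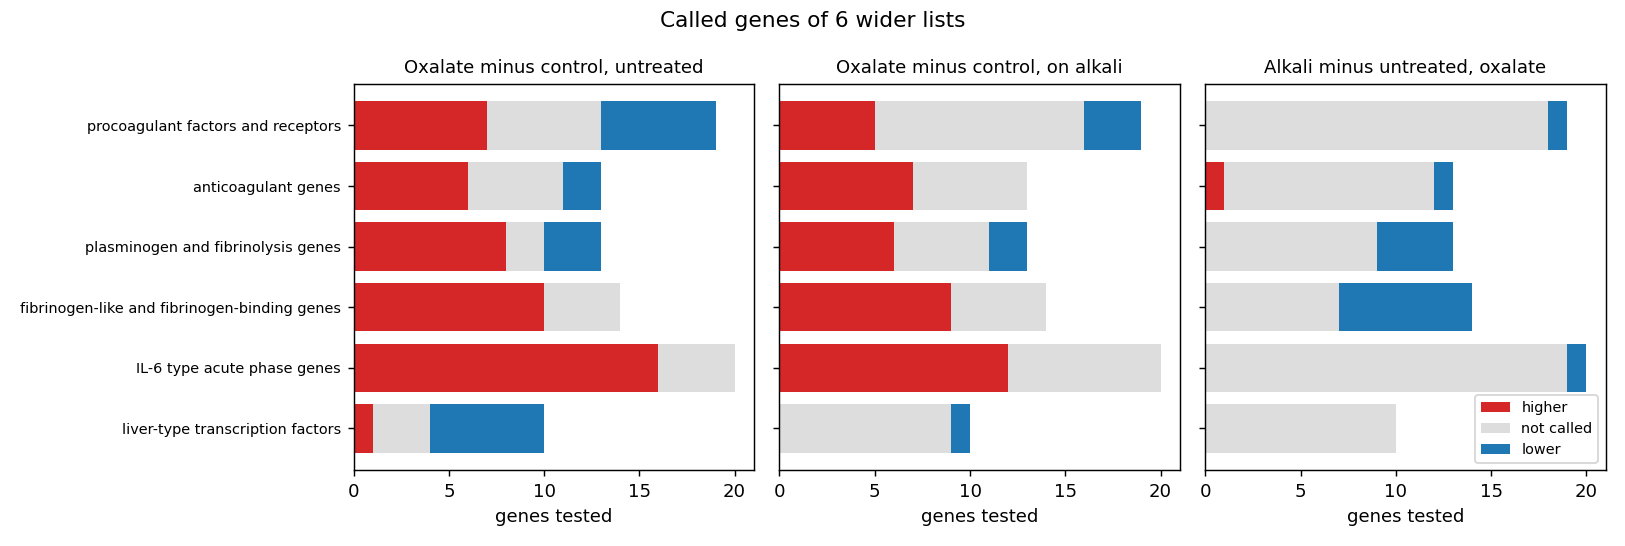
Number of genes in each of the 6 lists that were higher (red), not called (grey) or lower (blue) at an adjusted p under 0.05, for oxalate against control without and on alkali and for alkali in oxalate libraries. Acute phase genes are higher for 16 and 12 of 20 in the oxalate comparisons, and the right panel shows 1 higher and 14 lower genes in all.

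For alkali in control libraries edgeR's quasi-likelihood test called 0% of all genes higher and 0% lower, with 199 and 190 genes at an unadjusted p under 0.05, and DESeq2 called 3 higher. Of the 89 list genes 2 had an unadjusted p under 0.05 by edgeR. The interaction, whether the oxalate difference changes on alkali, called 0% of all genes higher and 0% lower, with 635 and 794 at an unadjusted p under 0.05, and DESeq2 called 12 higher and 14 lower. Of the list genes 18 had an unadjusted p under 0.05 for the interaction, and the smallest adjusted p was 0.39, for S100a10 (-0.53 ± 0.13). No list gene was thus shown to differ in its response to oxalate with and without alkali by edgeR.

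The profile of F2 over the 20 libraries had no close match. Likeness was measured as the root mean square difference of log2 CPM after centring each gene, over 12803 genes of sufficient level. The nearest gene was Ces1g, a carboxylesterase gene, at 0.74, against 1.43 for the gene of median likeness and an SD of 1.43 for F2 itself. Ces1g differed by -1.004 for oxalate without alkali, by 2.39 for alkali in oxalate and by 0.81 for alkali in control libraries. Col6a6, Hsd3b2, Clec2h and Kcng1 followed at 0.91, 0.96, 0.96 and 0.97. For Fgb the nearest genes were Ak7 (0.23), Zfp112 (0.24), Rdh11 (0.25), Cdkn2aipnl (0.25) and Mad1l1 (0.25), with an SD of 0.38 for Fgb itself and a median of 0.46. These are descriptions over libraries that share their groups, and they carry no test.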

How the data were processed

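Stranded poly(A) RNA libraries (TruSeq) were sequenced from 20 mouse samples, per the labels' protocols. The authors deposited raw whole-number counts per gene for 25700 mouse gene identifiers, and the submitters' processing notes name featureCounts, STAR 2.7.1, Trimmomatic, bcl2fastq 2.19 and edgeR. Those notes name GRCh38.p5, a human build, although the identifiers are those of mouse genes, and which build was used for counting is not settled here. The strand setting of the counting is not given in the sources used here. Without it, the counts of genes that overlap others on the opposite strand are uncertain, among them Fgg, Stat3, Cp, Plg, Cebpa, Anxa2, Fn1, Thbs1 and F5. Itgam shares 3450 exonic bases with Gm49368 on the same strand, so its counts are uncertain under any strand setting.

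Symbols and coordinates came from GENCODE M21 (GRCm38). It holds 25664 of the identifiers, and the other 36 took at most 0.0226% of a library's counts. Groups were taken from titles and treatment labels. In R 4.3.3, edgeR 4.0.16 kept 15430 genes by filterByExpr (minimum count 10), scaled by TMM and fitted 4 group means to all 20 libraries by the robust quasi-likelihood method, with Benjamini-Hochberg adjustment over all tested genes and a threshold of 0.05. The SE is the log2 fold change over the square root of F. Per list and comparison the 4 genes of smallest p were named, and others were chosen after their values were seen. A few picked this way are not reported here. Nearest profiles were named, 5 each, for F2 and Fgb. The 9 genes and the lists were chosen with earlier results of these data known. Alternatives were scaling, the filter, DESeq2 1.42.0, a fit of only the groups compared and leaving out each library. The code was tested on simulated data.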

Additional observations from a re-analysis of the deposited data

Results flagged for a closer look

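Of the 36 sets of 5 libraries (9 genes in 4 groups), 1 held a library far from the others. Plau stood at 689.2 CPM in library 2 of the oxalate mice on alkali, while the other 4 libraries of that group ran from 313 to 419 CPM. Its gap to the nearest library was 0.718 of the range of the group, where 0.710 is the limit for 5 values. Chance alone flags about 1 in 20 such sets.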

How the results depend on the processing

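All 45 log2 differences of the 9 genes were recomputed under each alternative, 1116 values in all, of which 6 moved by more than the SD of the gene's log2 level between libraries of a group, each under scaling by total counts. Other values moved by more than the SE of the difference, such as Fgg for oxalate without alkali, at 1.71 under that scaling, and Hrg for oxalate on alkali, at -1.86 without oxalate library 2 on alkali. The 6 were, for oxalate without alkali, Fgb at 0.86, Plat at 1.19, Plau at -0.75 and Thbd at 1.70 and, on alkali, Fga at -0.24 and Plat at 0.90. F2 kept its separation from the other group in all 22 settings for alkali in oxalate libraries, for alkali in controls and for oxalate without alkali. F2 for oxalate on alkali, with no separation, ran from -0.05 to 0.35.

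Scaling by total counts gave 7498 genes higher and 1308 lower for oxalate without alkali, with 10 list genes lower, and 5645 and 953 on alkali. Under it 7 list genes were lower for alkali in oxalate libraries and 0 of the 9 genes were lower without overlap for oxalate on alkali. DESeq2 gave 486 genes higher and 717 lower for alkali in oxalate libraries, with 3 and 23 list genes, 11 list genes lower for oxalate on alkali, 3 genes higher for alkali in controls, and 12 higher and 14 lower, 1 of them a list gene, for the interaction. With no filter, alkali in oxalate libraries gave 218 genes lower, with 6 list genes. A fit of those 2 groups alone gave 15 higher and 14 lower, 27 of these 29 among the 630 called with all groups, and 0 list genes either way. The cause of these shifts was not tested.

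With 1 library left out at a time, alkali in oxalate libraries gave 93 to 442 genes higher and 92 to 718 lower, with 1 to 2 and 2 to 26 list genes. Oxalate on alkali gave 1540 to 3634 lower, with 4 to 17 list genes, alkali in controls 0 to 1 higher, and the interaction 0 to 2 higher and 0 to 1 lower. Of the 9 genes, 1 to 3 were lower without overlap for oxalate on alkali (Hrg and Plau joined Fga without oxalate library 2 on alkali), 1 to 2 higher for alkali in oxalate libraries (Plau, without untreated oxalate library 40), 0 to 1 lower there (Fgg, without untreated oxalate library 32) and 0 to 1 lower for alkali in controls (Hrg, without untreated control library 19, or Plat, without control library 27 on alkali). No paired analysis was possible because the groups share no replicate number. Depth limits F2 most, with 3 to 10 counts in untreated oxalate libraries.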
